A study of Mus musculus with 18 samples.

Results

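The genes described here make poly(A) tails or act on the protein coat of those tails: the poly(A) polymerases Papola, Papolg and Tent2, the poly(A)-binding proteins Pabpc1, Pabpc4 and Pabpn1, and the partners of poly(A)-binding protein Paip1, Paip2, Paip2b and Tob1. They were chosen by name, and every probe set annotated to them was taken. That gave 10 genes and 21 probe sets, out of 17097 genes and 28898 probe sets with 1 gene symbol. Of the 21, 17 had a mean above that of every nonspecific control probe set and were tested, and 4 did not.

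Cortex and striatum were dissected together, from mice at 6 weeks of age. The groups were CPEB4 KO, CPEB4 GT/+ (heterozygous for the GT allele) and WT, with 2 animals each. The sources used here give no strain, sex or promoter for these animals, and say nothing of how the alleles were made. Each animal gave 3 arrays, 18 in all: ELUTED, the RNA that left a poly(U) column in 90% formamide and was enriched for long tails; WASH, the RNA that left it in 25% formamide and was enriched for short tails; and INPUT, the unfractionated total RNA.

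Poly(A) polymerases add adenosines to the 3' end of an RNA, in the nucleus when the transcript is cut, and in the cytoplasm when a stored mRNA is reactivated. Poly(A)-binding proteins cover the finished tail, promote translation and influence how fast deadenylases shorten it. CPEB proteins bind elements in the mRNA and recruit either tail-lengthening or tail-shortening enzymes, and in neurons they are known for local control of translation. The members are thus the enzymes and coat proteins of tails, and what was measured here is in which poly(U) fraction their own mRNAs were found.

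Values are log2 expression values made by the authors with RMA, and the ELUTED over WASH ratio is, on the log2 scale, ELUTED minus WASH within 1 animal. The number of arrays limits the precision, since the fits had 3 residual degrees of freedom before limma's moderation. The targeted gene, Cpeb4, was lower in CPEB4 KO than in WT INPUT at both probe sets tested, past limma's test at 1 of them. There it averaged 6.73 ± 0.26 in CPEB4 KO, 7.25 ± 0.18 in CPEB4 GT/+ and 8.31 ± 0.02 in WT (SD, n = 2 each; CPEB4 KO minus WT -1.58, limma adjusted p = 0.02). At the other, which has the highest mean over all arrays, it averaged 6.77 ± 0.21 in CPEB4 KO, 7.16 ± 0.22 in CPEB4 GT/+ and 7.89 ± 0.37 in WT (-1.12, limma adjusted p = 0.187). The position of its probe sets relative to the mutation is not given in the sources used here. Correlations within a group ran from 0.9809 to 0.9961 (Pearson r across probe sets, which are not independent replicates). The spread over all probe sets was narrower on ELUTED arrays (SD 1.78 to 1.90) than on WASH arrays (1.96 to 2.01) and ran from 1.89 to 1.95 on INPUT arrays. Neuron, striatal, astrocyte, oligodendrocyte, microglia and endothelial markers were above the controls by their mean over all arrays, at 35 of 35 genes found on the array by symbol.

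The first comparison asked on which side of the tail-length split the mRNAs of the tail machinery lay, over all 6 animals. With the probe set of highest mean taken for each gene, Papolg, Paip1 and Tob1 were the furthest on the short-tail side in the values as deposited. Pabpc1 and 2 of the 3 Pabpn1 probe sets did not pass in either direction, and their place relative to 0 moved with the scaling of the arrays. In limma's test 10 of the 17 member probe sets were lower in ELUTED than in WASH, 1 was higher and 6 did not pass a Benjamini-Hochberg adjusted p of 0.05 over 20268 probe sets. The background was 48.1% lower and 25.3% higher among all probe sets tested. The members' median ratio was -0.24, against -0.18 over all probe sets, so the members as a set lay near the background and the differences between members carry the account below.

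**Figure D1:**
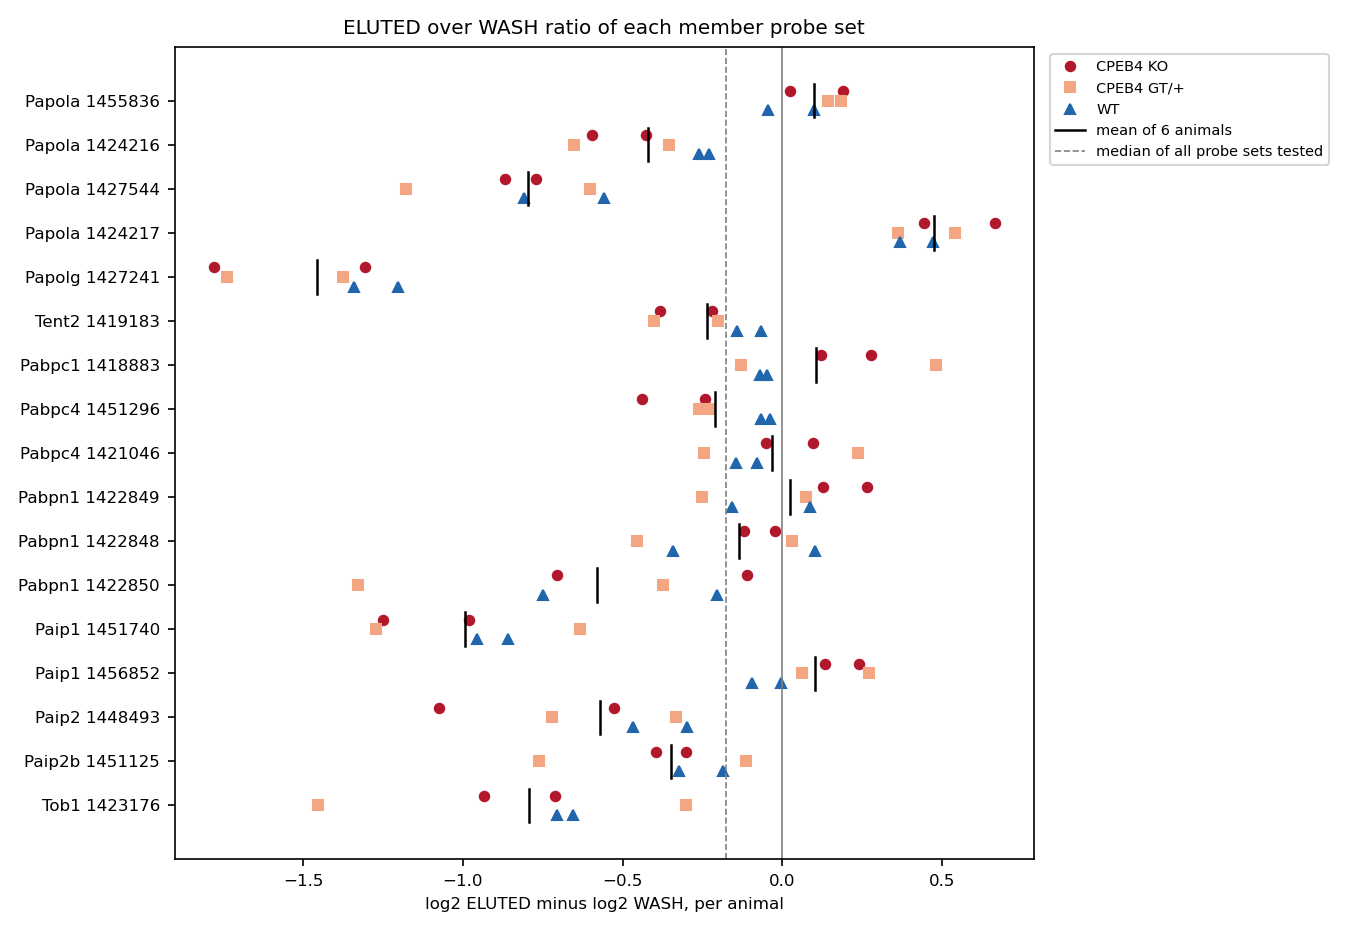
Log2 ELUTED minus log2 WASH of each member probe set above the controls, 1 point per animal (2 CPEB4 KO, 2 CPEB4 GT/+, 2 WT), with a black bar at the mean of the 6 animals and a dashed line at the median of all probe sets tested (-0.18). All 6 points of Papolg lie between -1.78 and -1.20, and those of Pabpc1 lie on both sides of 0.

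Papolg encodes a nuclear poly(A) polymerase related to the canonical one. Its only probe set, 1427241_PM_at, read 5.45 and 5.33 in CPEB4 KO, 5.72 and 5.46 in CPEB4 GT/+ and 5.36 and 5.63 in WT on the ELUTED arrays. On the WASH arrays it read 6.75 and 7.11 in CPEB4 KO, 7.10 and 7.20 in CPEB4 GT/+ and 6.70 and 6.83 in WT. Every WASH value was above every ELUTED value. The ratio averaged -1.46 (SE 0.09, limma adjusted p = 2.51e-05, lower in 6 of 6 animals). On 4 of the 6 ELUTED arrays the value was under 5.61, the highest mean of the nonspecific controls. With values set to at least that level the mean ratio was -1.32, so in the values as deposited Papolg was at least 2.49-fold lower in ELUTED. That bound covers the control level and not the scaling of the arrays. Over the 5 scalings described below the ratio as read ran from -1.95 to -1.15. INPUT lay between the fractions, with WASH 0.70 above INPUT (SE 0.05, adjusted p = 1.9e-05) and ELUTED 0.76 below it (-0.76, SE 0.11, adjusted p = 0.000843).

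Papola encodes the canonical nuclear poly(A) polymerase, and its 4 probe sets did not give the same picture. The one with the highest mean, 1455836_PM_at, had ratios of 0.03 and 0.19 in CPEB4 KO, 0.14 and 0.18 in CPEB4 GT/+ and 0.10 and -0.05 in WT. Its mean of 0.10 did not pass (SE 0.07, limma adjusted p = 0.228). The next pair read lower in ELUTED in all 6 animals: 1424216_PM_a_at at -0.42 (SE 0.08, adjusted p = 0.00124) and 1427544_PM_a_at at -0.80 (SE 0.09, adjusted p = 0.000142). The fourth, 1424217_PM_at, was the only member probe set called higher in ELUTED. Its ratios were 0.44 and 0.67 in CPEB4 KO, 0.54 and 0.36 in CPEB4 GT/+ and 0.47 and 0.37 in WT, for a mean of 0.48 (SE 0.07, adjusted p = 0.000564).

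Against the probe set with the highest mean, the ratios of the other 3 Papola probe sets differed by -0.52 ± 0.23, -0.90 ± 0.28 and 0.38 ± 0.10 (SD, n = 6 animals), in the order given above. Each had all 6 animals on 1 side (exact sign-flip test, two-sided, p = 0.0312, the smallest that 6 animals allow; 0.0437 adjusted over the 7 pairs of probe sets of 1 gene). After quantile normalization none of the 7 pairs passed in the exact test (smallest adjusted p = 0.0546), and the last of these differences was 0.17. The INPUT comparisons split them as well. WASH was below INPUT at 1424217_PM_at (-0.57), 1424216_PM_a_at (-0.34) and 1455836_PM_at (-0.27), and above it at 1427544_PM_a_at (0.47), all past limma's test. ELUTED was below INPUT at 1424216_PM_a_at (-0.76, adjusted p = 0.000221) and 1427544_PM_a_at (-0.32, adjusted p = 0.00855). Which Papola transcripts each probe set reads is not given in the sources used here. The Actb control probe sets, 3' minus 5', read -0.21 to -0.06 on WASH arrays and -0.47 to -0.31 on ELUTED arrays. For Gapdh these ranges overlapped (-0.13 to 0.02 and -0.05 to 0.06). Whether this bears on the probe sets of Papola, Pabpn1 or Paip1 that disagree was not tested.

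Tent2 encodes a cytoplasmic poly(A) polymerase without an RNA-binding domain of its own, known from Xenopus oocytes as a partner of CPEB. Its probe set above the controls, 1419183_PM_at, had ratios of -0.22 and -0.38 in CPEB4 KO, -0.20 and -0.40 in CPEB4 GT/+ and -0.07 and -0.14 in WT. The mean of -0.24 passed the test (SE 0.07, limma adjusted p = 0.0172), but it was close to the median of all probe sets. The call was lost without CPEB4 KO replicate 2 (-0.21), WT replicate 1 (-0.25) or WT replicate 2 (-0.22). Tent2 read 5.86 to 6.11 in INPUT, near the control level of 5.61. Its second probe set, 1433568_PM_at, not above the controls and not tested, had ratios between -1.03 and -0.25.

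Between the polymerases the ratios differed in the same direction in all 6 animals. Papolg minus Papola was -1.56 ± 0.33 (SD, n = 6), Papolg minus Tent2 was -1.22 ± 0.14 and Tent2 minus Papola was -0.34 ± 0.21, taking for each gene the probe set with the highest mean and the Papolg values as read. Each gave p = 0.0312 in the exact sign-flip test, the smallest that 6 animals allow, and 0.0624 adjusted over the 8 pairs of related genes. No pair passed. At that smallest p the adjusted value depends on how many of the pairs reach it, and not on the size of a difference. The same holds for the pairs of probe sets of 1 gene. Since Papola's own probe sets ran from -0.80 to 0.48, a difference of Tent2 from Papola depends on which of them is taken. Papolg was below all 4.

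Pabpc1 encodes the main cytoplasmic poly(A)-binding protein. Its probe set above the controls, 1418883_PM_a_at, read 9.46 and 9.20 in CPEB4 KO, 9.56 and 9.16 in CPEB4 GT/+ and 9.07 and 9.16 in WT on ELUTED arrays. On WASH arrays it read 9.18 and 9.08 in CPEB4 KO, 9.08 and 9.29 in CPEB4 GT/+ and 9.12 and 9.23 in WT. The fractions overlapped. The ratio averaged 0.11 (SE 0.09, limma adjusted p = 0.323), with 3 animals above 0 and 3 below, and the 95% interval of -0.11 to 0.32 bounds the difference that 6 animals could show. The CPEB4 GT/+ animals were the highest and the lowest of the 6, at 0.48 and -0.13. Without CPEB4 GT/+ replicate 2 the mean was 0.21 and passed (adjusted p = 0.0215). Neither fraction differed detectably from INPUT, with ELUTED at 0.12 (adjusted p = 0.206) and WASH at 0.02 (adjusted p = 0.798). The second probe set, 1453840_PM_at, not above the controls and not tested, had ratios between 0.09 and 0.42.

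Pabpc4 encodes a second cytoplasmic poly(A)-binding protein, first described in activated T cells. Poly(U) resin binds runs of adenosine, so the RefSeq windows at gene starts (GRCm38.p6, 250 bases before to 50 after the start) were searched for 10 adenosines in a row, AAAAAAAAAA, on both strands. Among the 9 windows of the 8 members found in that table only the Pabpc4 window held such a run on the transcript strand, and none held it on the other. Pabpc1 and Paip2 were not among the 8, so their starts were not searched. Of all 32851 windows 2.25% held the run on the transcript strand and 2.6% on the other. The run of Pabpc4, 14 bases long and in capitals here, lies 19 to 6 bases before the annotated start and inside the span RefSeq gives the gene. The 30 bases around it (chr4:123282884-123282913, plus strand) are shown beside the 30 around the Papolg start (chr11:23895256-23895285, minus strand), whose longest run of adenosines in the window is 4.
Pabpc4: aaaaccttAAAAAAAAAAAAAAgaaaagaa
Papolg: gggcggagccgcggaaggcgagaggcagcc
Whether transcripts of this tissue carry the run was not tested. Most of each window lies before the annotated start, so a missing run there says nothing of the rest of an mRNA.

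The Pabpc4 ratios were small. At 1451296_PM_x_at they were -0.24 and -0.44 in CPEB4 KO, -0.26 and -0.23 in CPEB4 GT/+ and -0.04 and -0.07 in WT, for a mean of -0.21 (SE 0.07, limma adjusted p = 0.0237). That call was lost without CPEB4 KO replicate 2 (-0.18), WT replicate 1 (-0.22) or WT replicate 2 (-0.21). The other probe set, 1421046_PM_a_at, averaged -0.03 (SE 0.08, adjusted p = 0.754), with 2 animals above 0 and 4 below. The x in the first name marks probes that can also match other transcripts, and the difference between the pair did not pass (0.18 ± 0.24, SD, n = 6, exact sign-flip p = 0.219, also after adjustment).

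Pabpn1 encodes the nuclear poly(A)-binding protein that stimulates tail synthesis. Its probe set with the highest mean, 1422849_PM_a_at, had ratios of 0.27 and 0.13 in CPEB4 KO, 0.07 and -0.25 in CPEB4 GT/+ and -0.16 and 0.09 in WT. The mean was 0.02 (SE 0.08, limma adjusted p = 0.794), and 1422848_PM_a_at averaged -0.13 (SE 0.09, adjusted p = 0.226). The third, 1422850_PM_at, was below 0 in 6 of 6 animals, at -0.11 and -0.70 in CPEB4 KO, -0.37 and -1.33 in CPEB4 GT/+ and -0.75 and -0.21 in WT. Its mean of -0.58 passed (SE 0.14, adjusted p = 0.00625) and differed from the first by -0.60 (± 0.30, SD, n = 6, exact sign-flip p = 0.0312, adjusted 0.0437). Against INPUT, ELUTED was lower at 1422850_PM_at (-0.66, adjusted p = 0.00414) and 1422848_PM_a_at (-0.25, adjusted p = 0.0294), and WASH was lower at 1422849_PM_a_at (-0.19, adjusted p = 0.012).

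Across the binding proteins no difference in the ratio passed. Pabpc4 minus Pabpc1 was -0.32 ± 0.33 (SD, n = 6, exact sign-flip p = 0.125, adjusted 0.143), and Pabpn1 minus Pabpc1 was -0.08 ± 0.19 (p = 0.438, adjusted 0.438). The single differences ran from -0.74 to 0.01 and from -0.41 to 0.15.

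**Figure D2:**
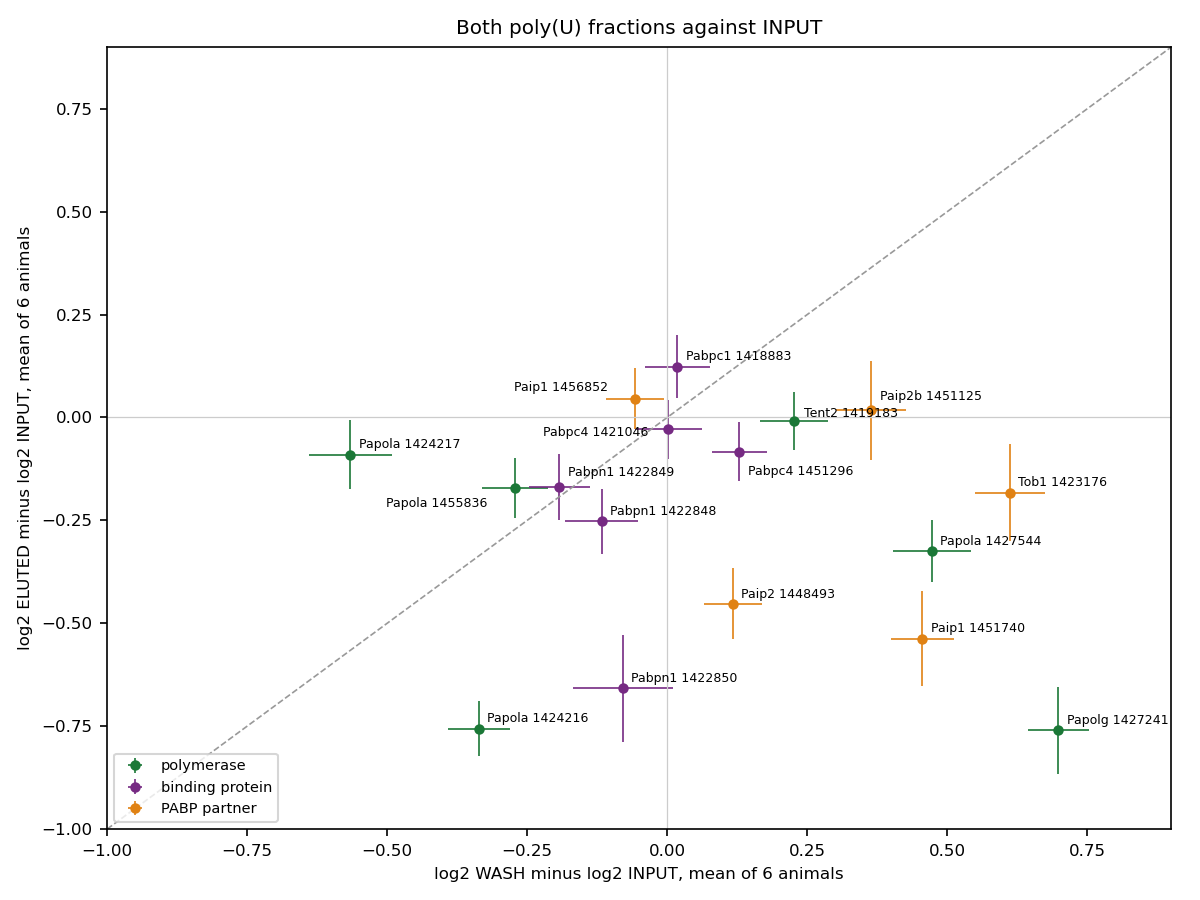
Mean log2 ELUTED minus INPUT (vertical) against mean log2 WASH minus INPUT (horizontal) of the 17 member probe sets over 6 animals, with limma's standard errors as bars; on the dashed line both fractions are equal. Papolg, Paip1 1451740 and Papola 1427544 lie at the lower right, and Papola 1424217 is at the far left, 0.57 lower in WASH than in INPUT.

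Paip1 encodes a protein that bridges poly(A)-binding protein and the translation initiation machinery, and its probe sets gave opposite readings. 1451740_PM_at read 7.61 and 7.57 in CPEB4 KO, 8.31 and 7.58 in CPEB4 GT/+ and 7.85 and 8.01 in WT on ELUTED arrays. On WASH arrays it read 8.60 and 8.82 in CPEB4 KO, 8.95 and 8.85 in CPEB4 GT/+ and 8.81 and 8.87 in WT. No ELUTED value reached the lowest WASH value. The ratio averaged -0.99 (SE 0.10, limma adjusted p = 7.4e-05, lower in 6 of 6 animals), with WASH 0.46 above INPUT (adjusted p = 0.000159) and ELUTED lower than INPUT (-0.54, adjusted p = 0.00607). In contrast 1456852_PM_at averaged 0.10 (SE 0.07, adjusted p = 0.223), with ratios of 0.14 and 0.24 in CPEB4 KO, 0.06 and 0.27 in CPEB4 GT/+ and -0.09 and -0.00 in WT. It exceeded the other by 1.10 ± 0.36 (SD, n = 6), in all 6 animals (exact sign-flip p = 0.0312, adjusted 0.0437). The third probe set, 1425521_PM_at, not above the controls and not tested, had ratios between -0.98 and -0.58.

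Paip2 and Paip2b encode inhibitors that displace poly(A)-binding protein from the tail and from its partners. Paip2 (1448493_PM_at) had ratios of -0.53 and -1.07 in CPEB4 KO, -0.33 and -0.72 in CPEB4 GT/+ and -0.47 and -0.30 in WT. Its mean was -0.57 (SE 0.10, limma adjusted p = 0.000918), and ELUTED was also lower than INPUT (-0.45, adjusted p = 0.00352), while WASH did not pass against INPUT (0.12, adjusted p = 0.072). Paip2b (1451125_PM_at) had ratios of -0.40 and -0.30 in CPEB4 KO, -0.11 and -0.76 in CPEB4 GT/+ and -0.32 and -0.19 in WT, with a mean of -0.35 (SE 0.10, adjusted p = 0.0104). For Paip2b it was WASH that passed against INPUT (0.36, adjusted p = 0.000903), and ELUTED did not (0.02, adjusted p = 0.916). The Paip2b mean was -0.089 after quantile normalization (adjusted p = 0.331) and -0.036 with arrays centred on the probe sets tested (adjusted p = 0.714). Without WT replicate 1 it was -0.32 (adjusted p = 0.0527), so the call was lost in these 3 settings.

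Tob1 encodes a growth-restraining protein that binds cytoplasmic poly(A)-binding protein and brings the CCR4-NOT deadenylase to it. At 1423176_PM_at it read 5.92 and 5.86 in CPEB4 KO, 6.28 and 5.35 in CPEB4 GT/+ and 5.72 and 5.83 in WT on ELUTED arrays. On WASH arrays the values were 6.64 and 6.80 in CPEB4 KO, 6.58 and 6.81 in CPEB4 GT/+ and 6.37 and 6.53 in WT. The fractions did not overlap, and the mean ratio was -0.79 (SE 0.14, limma adjusted p = 0.000966). WASH lay 0.61 above INPUT (SE 0.06, adjusted p = 5.79e-05), and ELUTED did not pass against INPUT (-0.18, adjusted p = 0.228). CPEB4 GT/+ replicate 2 had both the lowest Tob1 ratio, -1.45, and the only ELUTED value under the control level of 5.61. The second probe set, 1440844_PM_at, was not above the controls and not tested. Its ratios went the other way, between -0.03 and 0.41, with 5 of 6 animals above 0.

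Among the partners Paip1 lay below Paip2 in all 6 animals (-0.42 ± 0.15, SD, n = 6, exact sign-flip p = 0.0312, adjusted 0.0624). Paip2b minus Paip2 was 0.22 ± 0.28 (exact p = 0.0625, adjusted 0.1) and Tob1 minus Paip2 was -0.22 ± 0.31 (p = 0.125, adjusted 0.143). None of the 3 passed after adjustment, and the exact p of Paip1 minus Paip2 was already the smallest that 6 animals allow.

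Over all members, ELUTED against INPUT gave 0 higher and 7 lower of the 17 probe sets in limma's test, against 15.8% higher and 30.5% lower in the background, and 8 had an unadjusted p under 0.05. WASH against INPUT gave 7 higher and 4 lower, against 44.3% and 21.2%. The 2 comparisons share the INPUT arrays, so they are not separate evidence. Papolg, Paip1 (1451740_PM_at) and Papola (1427544_PM_a_at) were past the test in both, higher in WASH and lower in ELUTED than in INPUT.

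**Figure D3:**
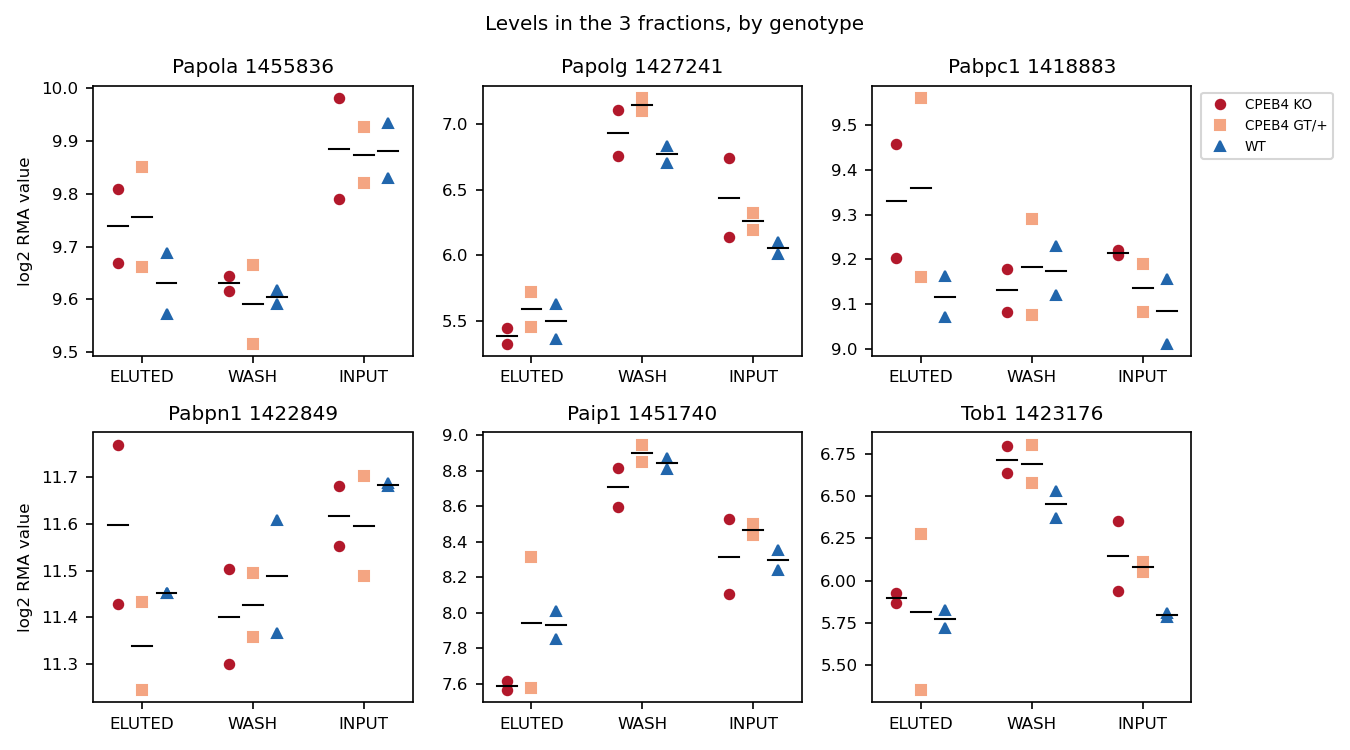
Log2 RMA values of 6 member probe sets in ELUTED, WASH and INPUT, 1 point per array and a black bar at the mean of the 2 animals of a genotype; each panel has its own vertical axis. Papolg, Paip1 and Tob1 are highest in WASH in all 3 genotypes, while Pabpc1 overlaps between fractions.

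The size of these ratios depends on how the arrays are scaled to each other. Besides the values as deposited, 4 other scalings were tried, which put the median ratio of all probe sets tested between -0.67 and 0.14, against -0.18 as deposited. Of all calls, 34.5% were higher in ELUTED as deposited, 23.6% with arrays centred on their medians, 3.56% when aligned on the hybridisation controls, 41.8% after quantile normalization and 61.9% with arrays centred on the probe sets tested. In all 5 scalings 5 member probe sets of 17 were called lower in ELUTED: Papolg (-1.95 to -1.15), Paip1 1451740_PM_at (-1.49 to -0.68), Papola 1427544_PM_a_at (-1.29 to -0.49), Tob1 (-1.29 to -0.48) and Paip2 (-1.06 to -0.26). How many of all probe sets were called lower in all 5 was not counted. It is at most 5717 of 20268, the number called lower with arrays centred on the probe sets tested. The count of 5 members is thus not shown to exceed the background. The other 5 member probe sets called lower as deposited lost the call in some scalings. After quantile normalization and with arrays centred on the probe sets tested, Papola 1424216_PM_a_at was at -0.11 in both, Pabpn1 1422850_PM_at at -0.28 and -0.27, Pabpc4 1451296_PM_x_at at 0.095 and 0.099 and Paip2b at the values above, all without a call, and Tent2 lost its call in the second of these (0.075). None was called higher in all 5, and Papola 1424217_PM_at, called higher in 4, was at -0.018 when aligned on the hybridisation controls. Pabpc1 ran from -0.39 to 0.42 and the main Pabpn1 probe set from -0.47 to 0.34, so their place relative to 0 is not fixed by these data. Relative to the median of all probe sets as deposited, Papolg lay at -1.28 and Pabpc1 at 0.28.

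**Figure D4:**
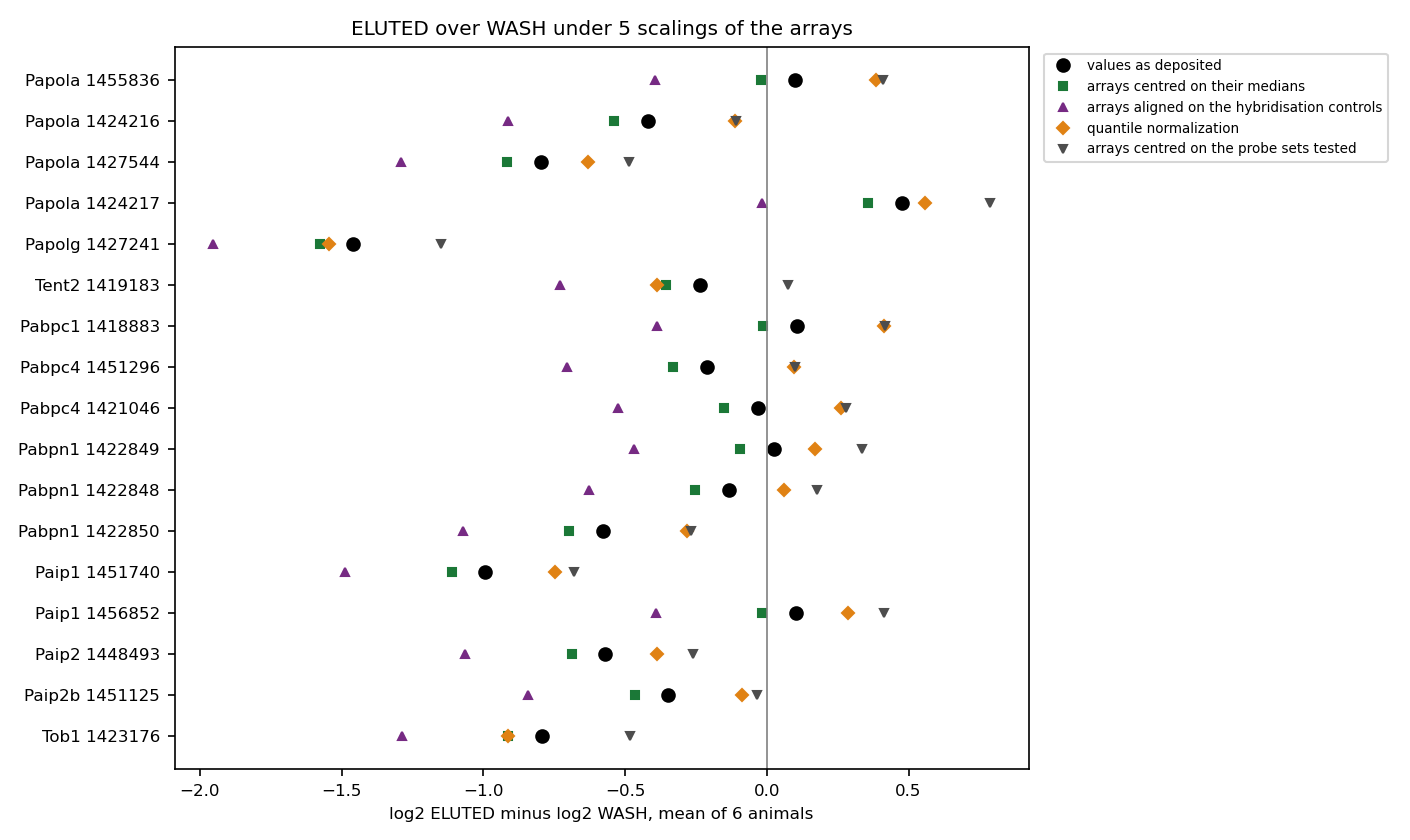
Mean log2 ELUTED minus WASH over 6 animals for each member probe set, as deposited (black circles) and under 4 other scalings of the arrays. Papolg stays between -1.95 and -1.15, while Pabpc1 ranges from -0.39 to 0.42.

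Within each genotype the same comparison was made on 2 animals with the spread shared over all 6. In CPEB4 KO 1 member probe set was higher and 7 lower in ELUTED (background 17.5% and 38.5%), in CPEB4 GT/+ 1 and 7 (14.9% and 36%), and in WT 1 and 3 (6.82% and 24.2%). Papolg was called in each, at -1.54 in CPEB4 KO (adjusted p = 0.000601), -1.56 in CPEB4 GT/+ (adjusted p = 0.00138) and -1.27 in WT (adjusted p = 0.00592). Paip1 1451740_PM_at was called in each too, at -1.12, -0.95 and -0.91 in that order, as were Papola 1427544_PM_a_at (-0.82, -0.89 and -0.68) and Papola 1424217_PM_at (0.55, 0.45 and 0.42). These counts hang on single animals: they changed when 1 animal was left out, and the number called among all probe sets changed too. The members' median ratio in CPEB4 KO was -0.34, with -0.38 without replicate 1 and -0.22 without replicate 2. Over all probe sets it was -0.18, -0.21 and -0.15 in that order. In CPEB4 GT/+ the members' median was -0.30, -0.45 and -0.24 in the same order, against -0.18, -0.25 and -0.11 over all. In WT it was -0.12, -0.15 and -0.26, against -0.15, -0.15 and -0.16 over all. Different counts in different genotypes do not show that the genotypes differ, which was tested next.

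The comparison of genotypes asked whether the machinery's own mRNAs shifted between fractions when CPEB4 was reduced or lost. In limma's test 0 of the 17 member probe sets passed in CPEB4 KO against WT, 0 in CPEB4 GT/+ against WT and 0 in CPEB4 KO against CPEB4 GT/+, and none had an unadjusted p under 0.05. Among all 20268 probe sets the background was 0% called in each of the 3 as well, with 1297, 204 and 438 at an unadjusted p under 0.05. With 2 animals a group the intervals were wide, from -0.96 at Paip2 to 0.87 at Pabpn1 1422850_PM_at in CPEB4 KO against WT, so shifts of that size cannot be told from none here.

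The smallest unadjusted p in CPEB4 KO against WT belonged to Paip2. Its ratio averaged -0.80 ± 0.38 in CPEB4 KO and -0.38 ± 0.12 in WT (SD, n = 2 each), a difference of -0.42 (95% interval -0.96 to 0.13, limma adjusted p = 0.736). Pabpc4 1451296_PM_x_at followed at -0.29 (-0.68 to 0.11, adjusted p = 0.739), then Papola 1424216_PM_a_at at -0.27 (-0.69 to 0.16, adjusted p = 0.761). In all 3 the CPEB4 KO animals lay below the WT animals. Of the 17 probe sets 4 had both CPEB4 KO animals above and 6 both below the WT animals, while 51.3% of all probe sets had such a gap in either direction. Over all probe sets the ratios spread more widely in CPEB4 KO (SD 0.613 and 0.766) than in WT (0.504 and 0.431). The part of that spread in the differences above was not tested.

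In CPEB4 GT/+ against WT the 3 smallest were Papola 1424216_PM_a_at (-0.26, 95% interval -0.68 to 0.16), Papolg (-0.29, -0.80 to 0.23) and Paip1 1456852_PM_at (0.22, -0.19 to 0.62). In CPEB4 KO against CPEB4 GT/+ they were Pabpn1 1422849_PM_a_at (0.28, -0.16 to 0.73), Pabpn1 1422850_PM_at (0.44, -0.36 to 1.24) and Paip2 (-0.27, -0.82 to 0.27). All 6 had an adjusted p of 1 in limma's test. CPEB4 GT/+ replicate 2 had the lowest ratio of the 6 animals at 11 of the 17 member probe sets. Over all probe sets its ratios had an SD of 0.793 and its companion's 0.434.

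**Figure D5:**
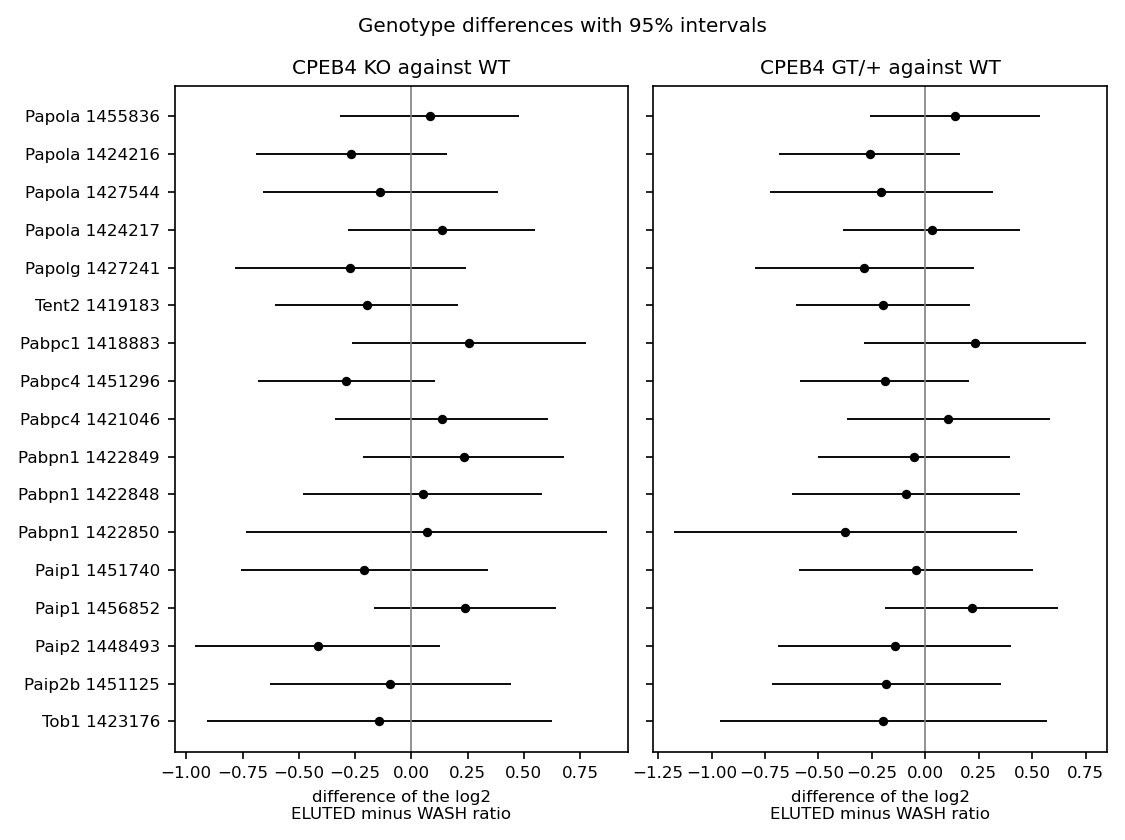
Difference of the log2 ELUTED minus WASH ratio for each member probe set, CPEB4 KO minus WT (left) and CPEB4 GT/+ minus WT (right), with limma's 95% intervals. All intervals include 0, the widest being that of Pabpn1 1422850.

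Levels in INPUT did not pass for any member either. In CPEB4 KO against WT 0 of 17 passed limma's test (background 0.0493%), with 1 at an unadjusted p under 0.05. That was Tob1, which read 5.94 and 6.35 in CPEB4 KO and 5.79 and 5.81 in WT, a difference of 0.35 (95% interval 0.03 to 0.67, adjusted p = 0.421). Papolg was next, with 6.14 and 6.74 in CPEB4 KO and 6.01 and 6.10 in WT (0.39, -0.03 to 0.80, adjusted p = 0.468), then Pabpc4 1421046_PM_a_at (0.20, -0.06 to 0.47, adjusted p = 0.541). For both Tob1 and Papolg CPEB4 KO replicate 2 gave the high value. The mean level of 6 microglia markers was 8.81 to 8.87 in CPEB4 KO and 8.46 to 8.65 in WT, of 6 endothelial and mural markers 8.28 to 8.58 and 8.11 to 8.13, and of 6 astrocyte markers 9.22 to 9.29 and 9.04 to 9.10. All genes of these 3 lists had a CPEB4 KO minus WT difference above 0, and 0 passed the test. The 5 striatal markers averaged 9.06 to 9.15 in CPEB4 KO and 8.79 to 8.90 in WT, with 4 of 5 above 0 (median difference 0.23) and 0 past the test. The other lists leaned less: 5 of 7 neuron markers (median 0.03), 3 of 5 oligodendrocyte markers (0.05) and 2 of 5 choroid plexus and pituitary markers (-0.04) were above 0. Among all probe sets tested 58.7% were above 0. The part of these lists in the INPUT values was not tested, and in bulk tissue more cells of a type and more RNA per cell cannot be told apart.

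In CPEB4 GT/+ against WT 0 members passed in INPUT (background 0%), with Tob1 again first, at 0.28 (-0.03 to 0.60), then Papola 1424217_PM_at at 0.22 and Papola 1424216_PM_a_at at 0.14, all with an adjusted p of 1. In CPEB4 KO against CPEB4 GT/+ 0 passed (background 0.00987%), and the smallest p were those of Papola 1424217_PM_at (-0.36, -0.74 to 0.01, adjusted p = 0.619), Tent2 (-0.17, adjusted p = 0.723) and Paip1 1456852_PM_at (-0.20, adjusted p = 0.744). None of the members had an unadjusted p under 0.05 in either. Since the WT animals serve in both comparisons with WT, the higher Tob1 values in both are not separate evidence.

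Single fractions gave the same outcome, with 0 members past limma's test in all 6 comparisons. In WASH the background was 0.0592% in CPEB4 KO against WT, 0% in CPEB4 GT/+ against WT and 0.0296% in CPEB4 KO against CPEB4 GT/+, and 1, 1 and 2 members had an unadjusted p under 0.05. Pabpc4 1451296_PM_x_at read 9.05 and 8.94 in CPEB4 KO and 8.62 and 8.68 in WT (0.34, 95% interval 0.11 to 0.58, adjusted p = 0.617). Papolg read 7.10 and 7.20 in CPEB4 GT/+ and 6.70 and 6.83 in WT (0.38, 0.09 to 0.67, adjusted p = 0.788). Papola 1424217_PM_at (-0.33) and 1427544_PM_a_at (-0.28) were the pair in CPEB4 KO against CPEB4 GT/+ (adjusted p = 0.804 and 0.863). In ELUTED the background was 0.00493%, 0% and 0% in the same order, no member had an unadjusted p under 0.05, and the smallest adjusted p of a member was 0.917, for Paip2 in CPEB4 KO against WT (-0.36, -0.82 to 0.10).

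The levels over the 18 arrays were also compared by shape. These correlations describe a pattern that includes the differences between fractions, with arrays of 1 animal sharing a source. Papolg ran closest to Dmac2l (Pearson r = 0.980), Appl1 (0.979) and Dut (0.979), Papola to Map2 (0.901), Lifr (0.896) and Csmd3 (0.895). Pabpn1 ran closest to Ap1m1 (0.865), Snhg11 (0.844) and Dvl2 (0.833). The closest to Pabpc1 were lower, at 0.834 for Yipf2, 0.771 for Ciz1 and 0.766 for Pggt1b. Among the members, with the probe set of highest mean for each gene, Papolg and Paip1 ran at r = 0.939, Paip2b and Tob1 at 0.886 and Papolg and Tob1 at 0.877, while Pabpc1 stayed between -0.27 and 0.10 with all others.

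Other genes of the tail pathway were placed beside the members by 1 probe set a gene, where 3083 of 12543 genes were higher and 6190 lower in ELUTED, with a median ratio of -0.19. Of the 10 members counted this way 0 were higher and 7 lower (median -0.29). Of 15 cleavage and polyadenylation factors 0 were higher and 11 lower (median -0.52), with the cleavage factor subunits Cpsf2 at -1.09 and Nudt21 at -0.85. Of 6 other nucleotidyltransferases 2 were higher and 3 lower (median -0.20). Tut4, a terminal uridylyltransferase, was at 0.69 and Papolb, the testis poly(A) polymerase, at 0.56, while the noncanonical polymerases Tent4b and Tent4a were at -0.79 and -0.36. Of 15 other poly(A)-binding proteins and partners 4 were higher and 9 lower (median -0.43), from Tob2 at 0.35 and the initiation factor Eif4g3 at 0.20 to the nuclear poly(A)-binding protein Zc3h14 at -1.22 and Btg1, a relative of Tob1, at -1.05.

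Of 15 deadenylase genes 1 was higher and 12 lower (median -0.45), with Pan3 at -0.70 and Cnot7, the CAF1 catalytic subunit, at -0.68. In the CPEB family Cpeb3 was higher at 0.62, and Cpeb4 (-1.34), Cpeb2 (-0.96) and Cpeb1 (-0.86, named after its value was seen) made the 3 lower of 4. The Cpeb4 mean includes CPEB4 KO and CPEB4 GT/+ animals, in which that gene was targeted. At its other probe set tested the mean was -0.40. In that order the 2 probe sets read -0.97 and -0.57 in WT, and -1.73 and -0.17 in CPEB4 KO. Apart from Cpeb1, genes were named from these lists only if they passed limma's test with all 6 animals on 1 side. That is the rule for naming and not a result.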

How the data were processed

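The authors deposited log2 expression values. The submitters' processing notes name RMA, without version or annotation. Amplification started from 5 ng of RNA and took 21 cycles, and 8 µg of the cDNA went into labelling, per the labels' protocols. RMA usually sets arrays to 1 scale, but the deposited arrays still differed between fractions in spread, as given above, and in median. Medians ran from 6.32 to 6.36 in WASH and from 6.43 to 6.48 in ELUTED. Total poly(A) RNA per fraction was not measured. The labels call the array Mouse PrimeView, but probe set names carry the PM mark, and genes were named through the platform annotation for those names. Of 45141 probe sets 104 controls, 551 with several symbols and 15588 without one were left out. Of 28898 with 1 symbol, 28689 matched RefSeq by Entrez ID and 0 symbols changed. Those with a mean above 5.61, the highest of 23 nonspecific controls, were tested (20268).

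Models with genotype means over 6 animals were fitted in limma 3.58.1 (lmFit, contrasts.fit, eBayes; R 4.3.3), two-sided, with Benjamini-Hochberg adjustment over all probe sets tested, for 18 comparisons; the code was checked on simulated data. SE is limma's moderated error. Named genes were all members, Cpeb4, and up to 2 higher and 2 lower called genes of each pathway list with all animals on 1 side; genes of the marker lists are given as ranges and not by name. Members and lists were chosen with earlier results of these data known. Alternatives were 4 other scalings (1 chosen after seeing the data), other filters, 1 probe set per gene, eBayes with trend, a replicate block and leaving out each animal.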

Additional observations from a re-analysis of the deposited data

How the results depend on the processing

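Of 898 recomputed single member values 817 kept their side of the test, 18 of them with a changed sign and a call in neither setting, while 53 lost a call, 19 gained one and 9 reversed. Reversed means here that the sign changed and only 1 of the settings compared held a call. No value was called in opposite directions. The 9 reversals of the ELUTED over WASH ratio all came from scaling. Aligned on the hybridisation controls, Papola 1455836_PM_at was -0.39, Papola 1424217_PM_at -0.018, Pabpn1 1422849_PM_a_at -0.47 and Paip1 1456852_PM_at -0.39. After quantile normalization Pabpc4 1451296_PM_x_at was 0.095 and 1421046_PM_a_at 0.26. Centred on the probe sets tested, Pabpc4 was 0.099 and 0.28 at the same pair and Tent2 was 0.075. With 1 probe set per gene, where only 10 members are tested, 7 passed in ELUTED over WASH over the 3 genotypes, 3 in ELUTED over INPUT, 5 in CPEB4 KO, 4 in CPEB4 GT/+ and 2 in WT. Of all 12543 genes tested this way 9238, 5579, 6925, 6307 and 3409 passed in that order. Aligned on the hybridisation controls 7 members passed in WT, beside 8672 of all 20268 probe sets. Leaving out 1 animal changed the counts within each genotype, both of members and over all probe sets. All animals stood on 1 side for 4 of 8 pairs of related genes, against 7 after quantile normalization (adjusted p = 0.0357) and 2 with the mean of all probe sets above the controls. For probe sets of 1 gene the number was 5 of 7, against 4 after quantile normalization and 2 with INPUT in place of WASH. The 5 calls past the exact test were lost in both (adjusted p from 0.0546 after quantile normalization). With 5 animals the exact test cannot go below 0.0625, so calls lost there say nothing of stability. Among all probe sets, INPUT of CPEB4 KO against WT gave 10 calls, 331 when aligned on the hybridisation controls, 339 without CPEB4 KO replicate 2 and 1 under the replicate block, and 0 members in each.

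Same-numbered animals of different genotypes are not tied by the labels, and their deviations correlated at -0.03, -0.10 and -0.04 in INPUT and at 0.48, -0.29 and -0.34 in the ratio (CPEB4 KO with CPEB4 GT/+, CPEB4 KO with WT, CPEB4 GT/+ with WT). With the replicate block 11 members passed in ELUTED over WASH, 7 in ELUTED over INPUT, 10 in WASH over INPUT, 7 in CPEB4 KO, 8 in CPEB4 GT/+, 5 in WT and 0 between genotypes. Of all 20268 probe sets 14645, 8998, 13246, 11298, 10294 and 6835 passed in the first 6 of these, in that order.

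Precision is limited by 2 animals a genotype. Papolg, at or under the controls on 4 ELUTED arrays, has only a bound there.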
